A study of Mus musculus with 9 samples.

Results

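The genes described here are the alpha-defensins and other granule genes of the Paneth cell, the secretory cell at the base of the crypts of the small intestine. They were taken from the table by symbol: every row whose symbol begins with Defa (27 rows), and 15 further genes, Lyz1, Lyz2, Ang4, Ang5, Ang6, Clps, Mmp7, Itln1, Mptx1, Mptx2, Nupr1, Habp2, Spink4, Pnliprp2 and Cd24a. This gave 42 genes of the 24930 symbols in the table. RNA had been measured by paired-end sequencing of poly(A)-selected libraries from mouse crypt epithelium, labelled day 8, 9 or 10. For the mutants these are days after a gain-of-function allele of Ctnnb1, the β-catenin gene, was induced on 1 chromosome. The 9 libraries form 3 groups of 3, each with 1 library per day. The control group is labelled only as control. Mutant set A has the title Bcathet, which names a heterozygous β-catenin allele. Mutant set B has the title Cdx2het_Bcathet, which adds a heterozygous Cdx2 allele. The library names say the opposite, with CDX2HET and EXON3 on set A but EXON3 alone on set B, so it is not settled which set has the Cdx2 allele, and both keep neutral names. The sources used here do not give the strain or age of the mice, the driver and agent that induced the allele, or the alleles that the controls carried.

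Paneth cells package antimicrobial proteins in large granules and release them into the crypt lumen. The most abundant are the alpha-defensins, short cationic peptides with paired cysteines that disrupt microbial membranes, made in the mouse from a large cluster of near-identical genes as inactive precursors that the protease matrilysin cleaves. Wnt signalling through β-catenin and its DNA-binding partners of the TCF family is known to be required for the maturation of Paneth cells and for defensin expression, and the same pathway maintains the neighbouring stem cells, for which Paneth cells supply signals.

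All levels are FPKM, fragments per kilobase of transcript scaled between libraries. Over 15138 genes above 0 in all libraries, the median ratio to the geometric mean was 1.003 in each library. The values were thus on a scale of equal median ratios and not of equal totals. Each fold change is a difference on the log2(FPKM + 1) scale with its standard error. Of the 42 genes, 36 reached at least 1 FPKM in at least 3 libraries and were among the 12097 genes tested, 23 of them Defa rows and 13 from the other group. Defa-ps12, Defa-ps13, Ang5 and Ang6 are listed at 0 in every library, and Defa25 and Defa4 stayed below the filter, with at most 0.567 and 1.39 FPKM. Summed FPKM ran from 624923 to 755802 per library, and from the steps between low values 1 FPKM rested on about 16.4 to 18.3 fragments for each kilobase of transcript. A principal component with 43.5% of the variance placed the controls between −22.7 and −21.6 and 5 of the mutant libraries between 2.57 and 29.96. Set B of day 9 stood apart from those 5, at −19.1, near the controls. It also had the pattern of a male, with 0.1002 FPKM of Xist and 41.7 FPKM over 4 Y-linked genes, whereas Xist ran from 27.04 to 39.4 FPKM in the other 8 libraries. Ctnnb1 ran from 187 to 207 FPKM in the controls and from 211 to 239 in the mutants, and Cdx2 from 108 to 139 in the controls, 126 to 144 in set A and 178 to 196 in set B. These gene-level values do not show which allele a transcript came from.

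The defensin transcripts fall into sequence families, and the families are the natural unit of description because reads of near-identical copies can be assigned to one or another. For 22 of the 27 Defa rows an open reading frame could be read from the GENCODE M21 transcripts (GRCm38), and genes were joined when their frames were identical at 95% of aligned bases or more. The largest family by level held Defa3, Defa17, Defa23, Defa24, Defa30 and Defa31 (called here the Defa24 family), the next held Defa5, Defa34, Defa35, Defa36 and Defa37 (the Defa36 family), and further families held Defa2, Defa20, Defa32 and Defa33 (the Defa2 family), Defa21 with Defa22, and Defa25 with Defa27 and Defa28. Defa26 and Defa29 stood alone. In 5 pairs the frames were the same base for base: Defa2 with Defa33, Defa3 with Defa17, Defa20 with Defa32, Defa23 with Defa31, and Defa36 with Defa37. Within such a pair the deposited values depend on bases outside the frame, and single-gene values are uncertain. The 3′ end of the frame, which encodes the mature peptide, is shown 5′ to 3′ from base 178 of the frame through the stop codon, to show how alike the copies are, with capitals at each base that does not match Defa24 in a pairwise alignment.
Defa24: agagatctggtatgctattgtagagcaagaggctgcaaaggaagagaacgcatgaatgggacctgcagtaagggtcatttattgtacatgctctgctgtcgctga
Defa30: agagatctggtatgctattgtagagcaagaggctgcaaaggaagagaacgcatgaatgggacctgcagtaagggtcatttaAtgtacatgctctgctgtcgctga
Defa23: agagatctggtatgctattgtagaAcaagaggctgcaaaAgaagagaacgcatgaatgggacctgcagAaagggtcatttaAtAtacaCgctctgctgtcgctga
Defa36: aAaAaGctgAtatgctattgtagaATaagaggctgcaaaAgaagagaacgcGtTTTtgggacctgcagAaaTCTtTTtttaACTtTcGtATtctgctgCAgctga
Defa20: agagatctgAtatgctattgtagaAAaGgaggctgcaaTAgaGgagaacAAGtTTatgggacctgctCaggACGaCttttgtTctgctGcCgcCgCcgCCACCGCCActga
Over this stretch Defa30 differed from Defa24 at 1 base, Defa23 at 6, Defa36 at 26 and Defa20 at 31, with 4 bases of Defa24 missing.

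The promoters of some of these genes share short motifs. RefSeq promoter windows (GRCm38.p6) were found for 24 of the 42 genes, 12 of them Defa genes. Defa3, Defa6, Defa17, Defa24 and Defa29 had no window, so their promoters were not searched. In the 250 bases before each start, TATAAA was searched on the coding strand alone. These bases were searched on both strands for CTTTGAT and CTTTGTT, forms of the TCF site, and for CANNTG, the E-box. The first of these, CTTTGAT, read as ATCAAAG on the coding strand, was present in 12 of 12 Defa promoters, against 3.21% of 32851 promoters of all genes, and in 1 of 13 windows of the 12 other genes matched (a second start of Mmp7). CTTTGTT was in 0 of 12 Defa promoters and in 5.03% of all promoters. CANNTG was in 11 of 12 Defa promoters, against 66.2% of all, and TATAAA in 11 of 12, against 7.59% of all. The Defa promoters are copies of one another by descent and are not independent observations, and a match is a string of letters and not a measured binding site. The stretch from 150 to 50 bases before the start is shown for 4 genes of 3 families, because these windows carry the shared motif, on the plus strand, with ATCAAAG in capitals: Defa23 at chr8:21054890-21054990, Defa30 at chr8:21134500-21134600, Defa36 at chr8:21427278-21427378 and Defa2 at chr8:21378367-21378467.
Defa23: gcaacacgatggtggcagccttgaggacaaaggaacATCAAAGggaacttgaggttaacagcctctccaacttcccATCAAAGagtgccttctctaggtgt
Defa30: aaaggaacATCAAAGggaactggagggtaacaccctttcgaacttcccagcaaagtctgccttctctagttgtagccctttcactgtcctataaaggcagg
Defa36: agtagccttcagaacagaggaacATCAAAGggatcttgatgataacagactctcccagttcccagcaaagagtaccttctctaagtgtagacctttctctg
Defa2: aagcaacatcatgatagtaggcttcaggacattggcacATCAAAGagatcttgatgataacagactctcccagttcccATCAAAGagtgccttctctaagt
Defa23 and Defa2 each held 2 copies of ATCAAAG in the 250 bases, and Defa30 and Defa36 each held 1.

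The summed defensin level was lower in every mutant library than in every control library. Summed over the 27 Defa rows it was 94069, 71016 and 119763 FPKM in the controls on days 8, 9 and 10. In set A it was 42014, 22479 and 40375 FPKM, and in set B 41243, 43329.6 and 51153 FPKM. The highest mutant sum, set B on day 10, lay below the lowest control sum, on day 9, and the lowest of all was set A on day 9. The controls averaged 94949 ± 24385 FPKM (SD, n = 3), set A 34956 ± 10836 (n = 3), set B 45242 ± 5225 (n = 3) and the mutants together 40099 ± 9467 (n = 6), which is 0.422 times the control mean. As a share of the summed FPKM of all genes, the Defa rows took between 11.1% and 16.02% of each control library and between 3.56% and 6.93% of each mutant library. These are sums over chosen genes and carry no test. In bulk RNA, fewer Paneth cells and less defensin RNA per Paneth cell cannot be told apart.

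Across single genes the movement was downward. In limma's test of both mutant sets against control, with Benjamini-Hochberg adjustment over all genes tested, 8 of the 36 members fell and none rose at an adjusted p under 0.05: the defensins Defa6, Defa23, Defa24, Defa29 and Defa30, the lysozyme gene Lyz1, the angiogenin gene Ang4 and the colipase gene Clps. Over all 12097 genes, 0.645% were called lower and 0.513% higher by the same rule, 78 lower of 140 calls, and with libraries scaled to equal totals it was 36 lower of 169 calls, with 11 members among the lower. The median fold change of the 36 was −1.09, against −0.0017 over all genes tested, and 30 of 36 values were negative. At an unadjusted p under 0.05 there were 21 members, with each of the 21 lower in the mutants, beside 2537 of all genes tested (20.97%) in either direction. For 16 of 36 members all 6 mutant libraries lay below every control library, which held for 7.37% of all genes tested, and no member had all 6 above (5.19% of all genes). The count of 8 depends on single libraries: it was 13 without set B of day 9, which stood apart, and 1, 2 and 0 without the control of day 8, 9 or 10.

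**Figure D1:**
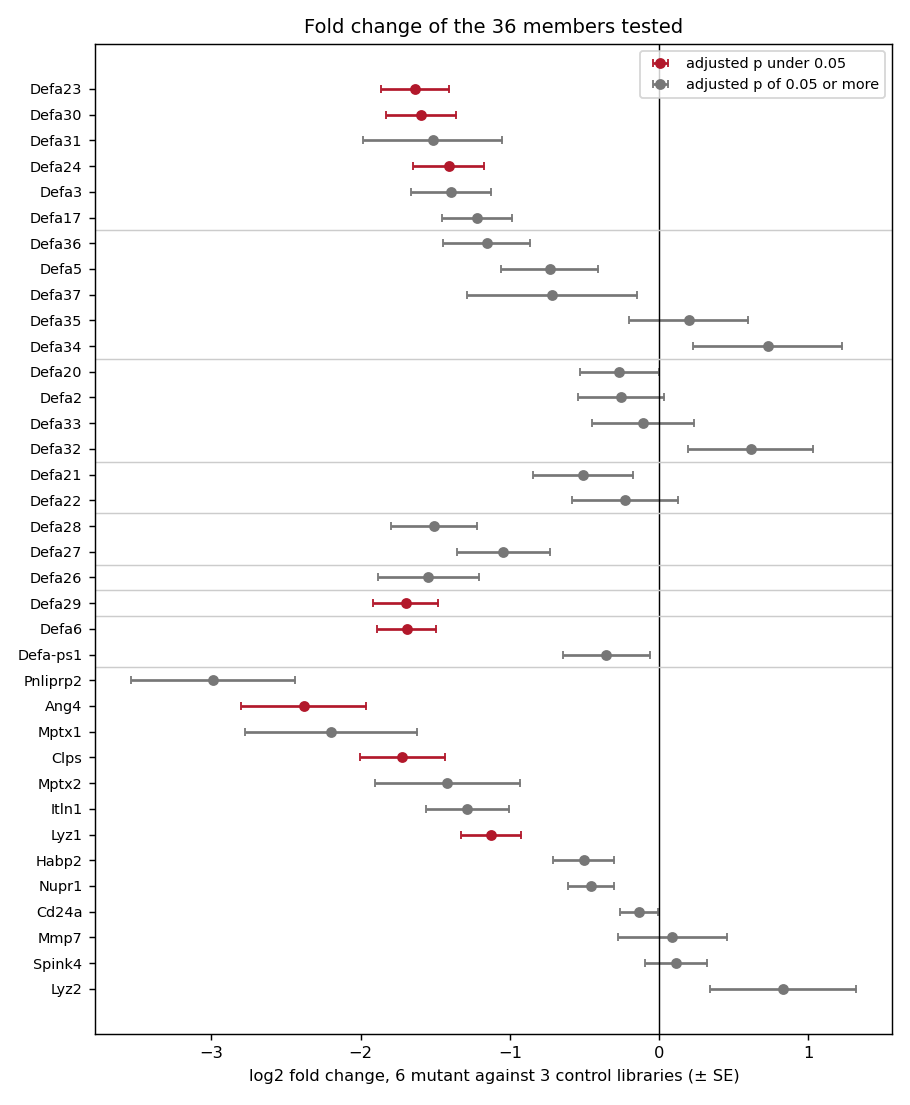
Log2 fold change (x axis, on log2 of FPKM + 1) of the 36 genes tested, 6 mutant against 3 control libraries, with bars of 1 standard error, grouped by Defa sequence family from the top and then the 13 other genes. The 8 genes that passed the limma test (red) lie between −2.38 and −1.13, and the genes to the right of 0 are Defa32, Defa34, Defa35, Mmp7, Spink4 and Lyz2.

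The Defa24 family made up most of the defensin transcript and held 3 of the 5 defensins that passed the test. The 6 genes of this family summed to 70768, 56845 and 97458 FPKM in the controls on days 8, 9 and 10. They summed to 29578, 15435 and 24742 FPKM in set A and 29682, 33843 and 35479 FPKM in set B. The mutant libraries lay well below the controls, without overlap, with means of 28127 ± 7263 (n = 6) and 75024 ± 20638 FPKM (n = 3), a ratio of 0.375. Each of the 6 members had a negative fold change, between −1.63 and −1.22, and 3 of them passed the test.

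Defa24, the gene with the highest level in each control library, read 21383, 16106 and 27698 FPKM in the controls. It read 8479.8, 4354 and 7641.5 FPKM in set A and 8699, 10005 and 10509.9 FPKM in set B. Its groups did not overlap, set A lay below set B on each day, and its difference was −1.41 ± 0.24 (limma, adjusted p = 0.0418). It passed in 3 of the 9 fits with 1 library left out, with adjusted p up to 0.172, and did not pass with no filter on low values. Defa23 read 14934, 13039 and 21128 FPKM in the controls, 5547, 2804 and 4480.4 FPKM in set A and 5721, 7151 and 6629.8 FPKM in set B. It had the largest fall of the family at −1.63 ± 0.23 (adjusted p = 0.0230), again with set A below set B throughout, and passed in 3 of those 9 fits. Defa30 read 11942, 10055.5 and 15989 FPKM in the controls, 3895, 2432 and 4869 FPKM in set A and 4348, 4275 and 5701 FPKM in set B, a difference of −1.59 ± 0.24 (adjusted p = 0.0264) that passed in 5 of them. For Defa30 the mutant sets overlapped each other and neither reached the controls.

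Defa17, whose frame is identical to that of Defa3, stood second to Defa24 in the controls, with 17945, 15069.8 and 26492 FPKM. It read 9473, 4797 and 6636 FPKM in set A and 9363, 10571 and 10782 FPKM in set B, again with no overlap. The difference of −1.22 ± 0.23 missed the threshold (adjusted p = 0.0539), as did Defa3 at −1.40 ± 0.27 (adjusted p = 0.0549). Defa17 passed under 5 of the 16 alternatives tried and Defa3 under 4. Defa31, the copy with the frame of Defa23, spread from 758 to 2481 FPKM in the controls and from 258 to 945 in the mutants, with 5 of 6 mutant libraries below every control (−1.52 ± 0.47, adjusted p = 0.135).

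**Figure D2:**
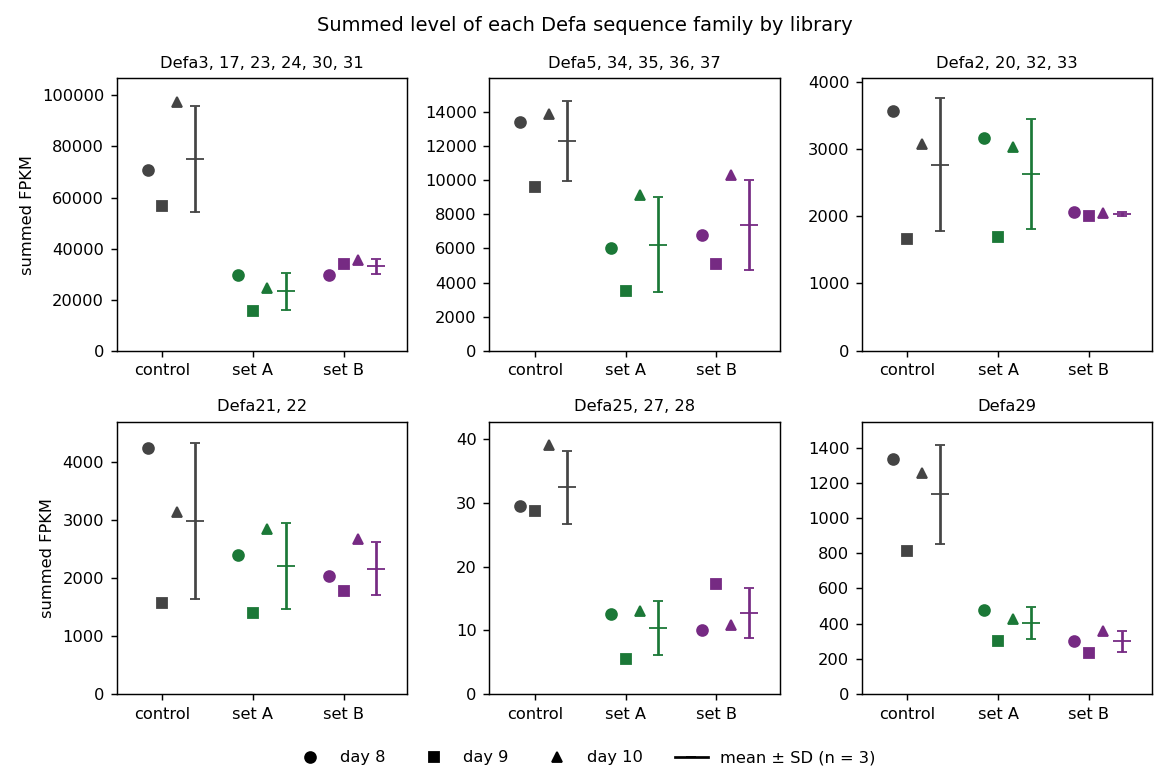
Summed FPKM (linear axis from 0) of 6 Defa sequence families in each library, with circles, squares and triangles for days 8, 9 and 10 and a bar for the mean ± SD of 3 libraries beside each group. Control and mutant libraries are apart for the Defa3 to Defa31 family, for Defa25 with Defa27 and Defa28, and for Defa29, whereas they overlap for the other 3 families.

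The Defa36 family was lower in part. Its 5 genes summed to 13428, 9629 and 13886 FPKM in the controls. The sums were 6054, 3511 and 9126 FPKM in set A and 6804, 5059 and 10281 FPKM in set B. Here 5 of 6 mutant libraries lay below every control and the day-10 library of set B lay above the day-9 control, with means of 6806 ± 2527 (n = 6) and 12315 ± 2337 FPKM (n = 3). Defa36 itself read 9824, 7236 and 10404.5 FPKM in the controls, 3891, 2298 and 5488 FPKM in set A and 4225, 3478 and 6191 FPKM in set B. It did not overlap, at −1.16 ± 0.29 (adjusted p = 0.0886). Defa5 differed by −0.73 ± 0.33 and Defa37 by −0.72 ± 0.57, both short of the threshold.

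Defa34 had a positive difference within the same family, although from base 178 its frame is the same as that of Defa36. Over the whole frame the 2 genes are 97.9% identical, and how reads were divided between them was not tested. Defa34 read 413, 348 and 455 FPKM in the controls, 491, 322 and 1173 FPKM in set A and 857, 372 and 1500.2 FPKM in set B. The day-10 libraries of both mutant sets were the highest and the day-9 libraries lay near the controls, so the groups overlapped and the difference of 0.73 ± 0.50 did not pass (adjusted p = 0.445). As a share of all Defa FPKM, Defa34 took 0.380% to 0.491% in the controls and 0.858% to 2.93% in the mutants. Defa35 stayed low, from 4.78 to 19.5 FPKM over all libraries (0.20 ± 0.40).

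The Defa2 and Defa21 families overlapped between groups. The 4 genes of the Defa2 family summed to 3564, 1665 and 3069 FPKM in the controls, 3163, 1685 and 3024 FPKM in set A and 2056, 1999 and 2049 FPKM in set B. The day-9 control was the lowest library of all, and no mutant library lay outside the range of the controls. Defa2 differed by −0.26 ± 0.29, Defa20 by −0.27 ± 0.27, Defa33 by −0.11 ± 0.34 and Defa32 by 0.61 ± 0.42, and none passed. Defa21 and Defa22 together averaged 2979 ± 1344 FPKM in the controls (n = 3) and 2185 ± 552 in the mutants (n = 6), and differed singly by −0.51 ± 0.33 and −0.23 ± 0.36. The controls alone ranged from 1566 to 4240.4 FPKM.

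The make-up of the defensin pool was described by the share of each family. The Defa24 family took 75.2%, 80.0% and 81.4% of the summed Defa FPKM in the controls. In set A its share was 70.4%, 68.7% and 61.3%, and in set B it was 72.0%, 78.1% and 69.4%. Set A lay below the controls throughout, and set B overlapped them through its day-9 library. The Defa2 family took 3.79%, 2.34% and 2.56% of the pool in the controls. In set A it took 7.53%, 7.50% and 7.49%, and in set B 4.99%, 4.61% and 4.01%. These 3 ranges did not overlap, with set A highest and controls lowest. A share of a pool rises when the other parts of it fall, and these shares are a description with no test.

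**Figure D3:**
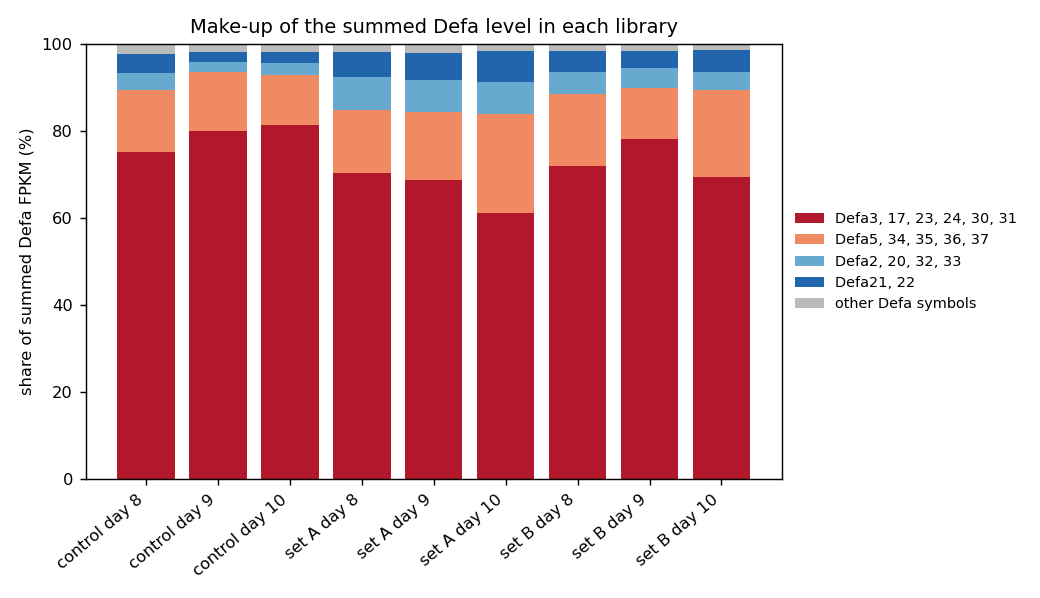
Share of the summed Defa FPKM (y axis, percent of 100) taken by each sequence family in the 9 libraries. The Defa3 to Defa31 family takes 75.2% to 81.4% in the controls and 61.3% to 78.1% in the mutants, and the Defa2 family takes 2.34% to 3.79% in the controls and 4.01% to 7.53% in the mutants.

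Among defensins of lower level, Defa29 and Defa6 passed the test. Defa29, whose frame of 351 bases is longer than the 279 to 288 of the other genes, read 1334, 813 and 1256 FPKM in the controls. It read 477, 303 and 427 FPKM in set A and 304, 235 and 358 FPKM in set B. All mutant values were below the lowest control, at −1.70 ± 0.22 (limma, adjusted p = 0.01645) and in 7 of 9 fits with 1 library left out it passed again. Defa6 read 33.8, 19.7 and 21.3 FPKM in the controls, 4.62, 5.13 and 6.09 FPKM in set A and 8.23, 7.06 and 11.6 FPKM in set B. Its 3 groups were apart from each other, with set A lowest, and the difference of −1.69 ± 0.20 had the smallest adjusted p among the members (0.0134), and it passed in 8 of the 9 such fits. No frame was read for the Defa6 row. Defa26 averaged 573 ± 190 FPKM in the controls (n = 3) and 204 ± 84.6 in the mutants (n = 6) without overlap (−1.55 ± 0.34, adjusted p = 0.0733). Defa28 averaged 28.4 ± 5.36 and 9.79 ± 3.74 FPKM, also without overlap (−1.51 ± 0.29, adjusted p = 0.0568), and Defa27, at 4.10 ± 0.89 and 1.59 ± 0.99 FPKM, differed by −1.04 ± 0.31 (adjusted p = 0.125). The pseudogene Defa-ps1 overlapped between groups (−0.35 ± 0.29).

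Lyz1 encodes the lysozyme of Paneth cell granules, which cleaves bacterial cell walls. It read 8819.6, 6449 and 8211 FPKM in the controls, 3877, 2091 and 3747 FPKM in set A and 3834, 4252 and 4063 FPKM in set B. The highest mutant library lay below the lowest control, and the difference was −1.13 ± 0.20 (limma, adjusted p = 0.0456), and it passed in 3 of the 9 fits with 1 library left out. Lyz2, the lysozyme gene of myeloid cells, is 86.4% identical in its frame, and its level was of another order: 0.936 to 1.64 FPKM in the controls and 1.09 to 6.78 in the mutants. The groups overlapped for Lyz2 (0.83 ± 0.49, adjusted p = 0.370). Summed over 10 macrophage and neutrophil markers the level was 7.56 to 7.85 FPKM in the controls and 6.09 to 12.4 in the mutants, and the day-9 libraries of sets A and B, with the highest Lyz2, had marker sums of 12.4 and 7.35 FPKM. The part of such cells in the Lyz2 values was not tested.

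Ang4, an angiogenin-family ribonuclease with microbicidal activity, had the largest fold change among the genes that passed. It read 2144, 3058 and 7238 FPKM in the controls, 798, 322 and 667 FPKM in set A and 925, 701 and 1007 FPKM in set B. The control of day 10 was far above the other 2 controls, and the mutants lay below each of them, at −2.38 ± 0.42 (limma, adjusted p = 0.0473). It passed in 1 of the 9 fits with 1 library left out, set B of day 9, and neither when libraries were scaled to equal totals of all genes other than the members nor with the day as a term (adjusted p = 0.0560). Its relative Ang, 84.9% identical in its frame and expressed more widely, moved the other way, from 26.9 ± 3.09 FPKM in the controls (n = 3) to 39.0 ± 4.10 in the mutants (n = 6), a rise of 0.52 ± 0.08 (adjusted p = 0.0298).

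Among the lectins, Itln1 and Mptx2 lay lower in the mutants without passing the test. Itln1 encodes intelectin, which binds microbial glycans, and read 4799.8, 4013 and 5854 FPKM in the controls, 2134, 948 and 2160.2 FPKM in set A and 2331, 2041 and 2916 FPKM in set B. No mutant library reached a control (−1.28 ± 0.28, adjusted p = 0.0720). Mptx2, a mucosal pentraxin of Paneth cells, ran from 1369 to 2801 FPKM in the controls and from 313 to 1141 in the mutants, also without overlap (−1.42 ± 0.49, adjusted p = 0.159). Its day-9 libraries were the lowest of each group. With the day as a term in the fit, Itln1 passed at an adjusted p of 0.0371 and Mptx2 at 0.0428. The copy of Mptx2, Mptx1, 92.5% identical in its frame, was at 2.41, 8.24 and 21.8 FPKM in the controls and at most 2.46 in the mutants (−2.20 ± 0.58, adjusted p = 0.0979). How reads were divided between the 2 copies was not tested.

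Both lipid-digestion genes lay lower in each mutant library than in any control. Clps, which encodes the cofactor of pancreatic lipase and is also made by Paneth cells, read 765, 771 and 1614 FPKM in the controls, 313, 172 and 228 FPKM in set A and 331, 462 and 373 FPKM in set B. All 3 groups were apart, set A lowest, and Clps fell by 1.72 ± 0.28 on the log2 scale (limma, adjusted p = 0.0418), and it passed in 2 of the 9 fits with 1 library left out but not with the day as a term (adjusted p = 0.0692). Pnliprp2, a lipase related to pancreatic lipase, read 119.5, 149.5 and 490.4 FPKM in the controls, 31.8, 9.57 and 21.4 FPKM in set A and 27.5, 58.9 and 23.1 FPKM in set B. It had the largest fold change of the 36 members, −2.99 ± 0.55, with no overlap, and missed the threshold at an adjusted p of 0.0510. The 12 pancreatic acinar markers present in the table summed to 4.1996 to 4.99 FPKM in the controls and 5.10 to 14.1 in the mutants. Of these markers 6 stayed below 1 FPKM in every library and only 1 passed the filter. The part of pancreatic RNA in the levels of Clps and Pnliprp2 was not tested.

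**Figure D4:**
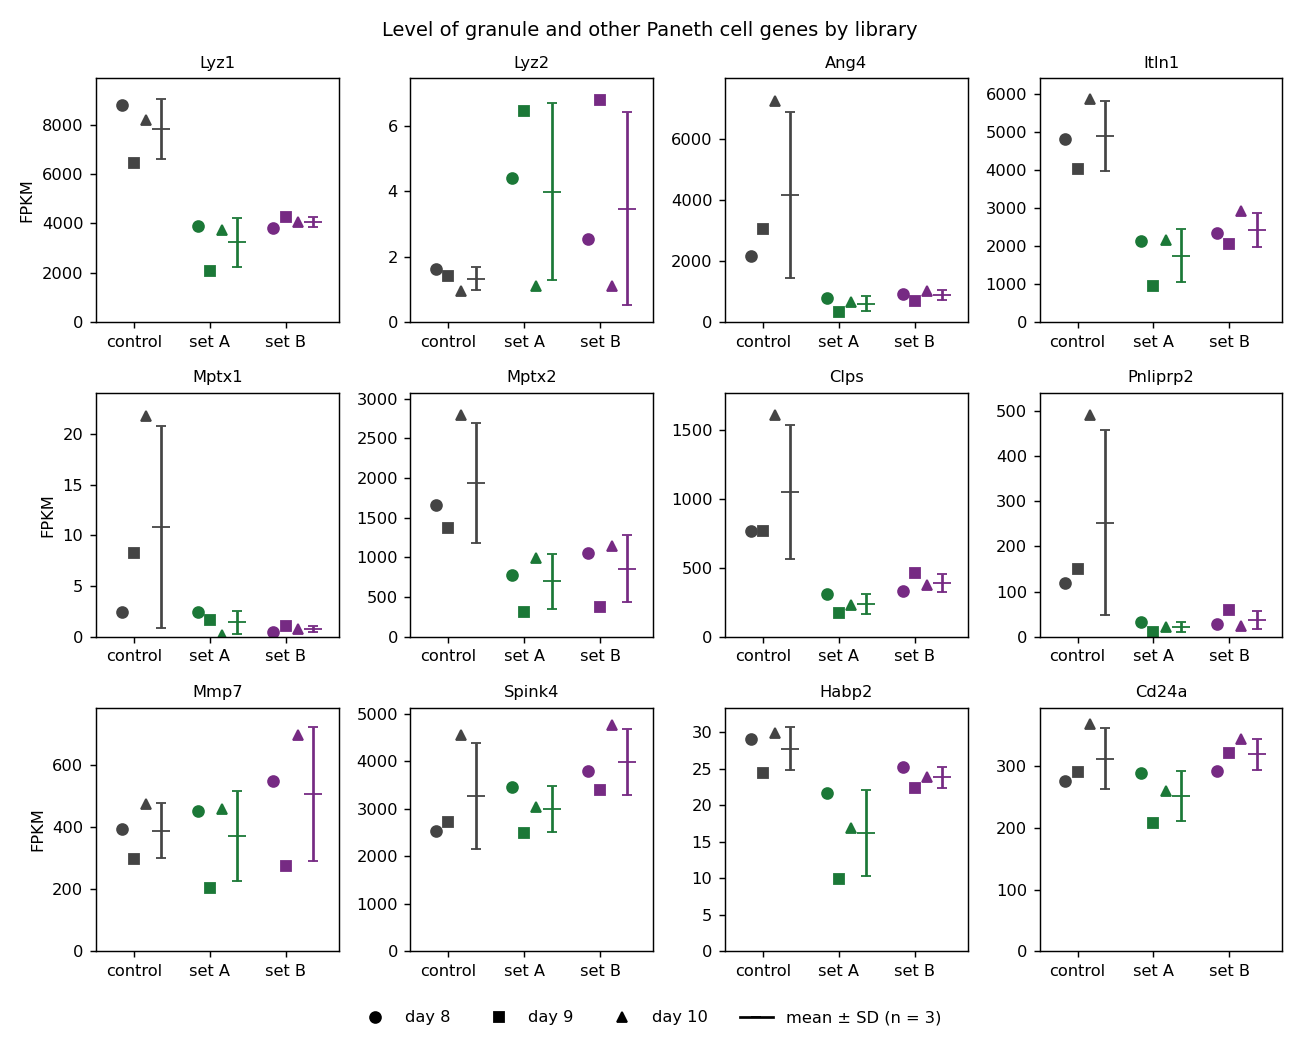
FPKM (linear axes from 0) of 12 of the 15 granule and other Paneth cell genes in each library, with circles, squares and triangles for days 8, 9 and 10 and a bar for the mean ± SD of 3 libraries beside each group. Lyz1, Ang4, Itln1, Mptx2, Clps and Pnliprp2 lie lower in all 6 mutant libraries than in any control, whereas Mmp7, Spink4 and Cd24a overlap between the groups.

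Mmp7 and Spink4 overlapped between the groups. Mmp7 encodes matrilysin, the protease that activates the alpha-defensin precursors in mouse Paneth cells. It read 392, 297 and 473 FPKM in the controls, 449.9, 204 and 458 FPKM in set A and 548, 273 and 696 FPKM in set B. The day-9 library was the lowest of each group with a difference of 0.09 ± 0.37 (adjusted p = 0.913) whose sign changed under 5 of the 16 alternatives. Spink4, a Kazal-type peptidase inhibitor of goblet and Paneth cells, read 2536, 2728 and 4542 FPKM in the controls, 3446, 2486 and 3039.5 FPKM in set A and 3786, 3397 and 4752 FPKM in set B. It ranked between 11 and 25 among all genes of each library, and its difference was 0.11 ± 0.21 (adjusted p = 0.787), and the value turned negative without the day-8 control. The 8 goblet cell markers gave a median of −0.06, with Ccl9 passing upward at 0.91 ± 0.15 (adjusted p = 0.0418). Clca1, a secreted goblet cell protein, had the largest difference of that list, at −1.92 ± 0.46, with all 6 mutant libraries below every control, and did not pass (adjusted p = 0.0827).

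None of the remaining genes passed the test between the mutants and the controls. Cd24a, a surface protein used to sort Paneth cells, ran from 277 to 368 FPKM in the controls and from 208 to 343 in the mutants (−0.13 ± 0.13). Habp2, a hyaluronan-binding protease, averaged 27.8 ± 2.97 FPKM in the controls (n = 3), 16.2 ± 5.92 in set A (n = 3) and 23.8 ± 1.41 in set B (n = 3), with set A below every control and set B overlapping them. Nupr1, a small stress-response nuclear protein, averaged 65.0 ± 8.97 FPKM in the controls (n = 3) and 47.4 ± 8.86 in the mutants (n = 6). Habp2 and Nupr1 differed by −0.50 ± 0.20 and −0.46 ± 0.15, and neither passed (adjusted p = 0.211 and 0.155).

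Each mutant set was also compared with the controls on its own. In set A 2 members passed downward, Defa23 at −1.96 ± 0.27 (limma, adjusted p = 0.0364) and Defa6 at −2.01 ± 0.23 (adjusted p = 0.0260), and none upward, where 0.0909% of all genes tested were called lower and 0.124% higher. In set B 2 members passed downward, Defa29 at −1.91 ± 0.25 (adjusted p = 0.0214) and Defa6 at −1.37 ± 0.23 (adjusted p = 0.0489), and none upward, with 0.24% of all genes called lower and 0.389% higher (0.628% in either direction). The median over the 36 members was −1.20 in set A and −0.93 in set B. These comparisons share the same 3 control libraries. At an unadjusted p under 0.05 there were 20 members in set A and 19 in set B, each of them lower, beside 16.7% and 16.5% of all genes tested in either direction. Fitted with the day as a term, set A and set B each had 2 calls, Defa29 and Defa30 in both, so that Defa23 and Defa6 no longer passed in set A, nor Defa6 in set B.

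The test of set B against set A itself called none of the 36 members, and 0.0% of all genes tested (limma, adjusted p of 1.00 for each). At an unadjusted p under 0.05 there were 4 members, Defa6, Defa23, Habp2 and Cd24a, with the higher level in set B for each, beside 376 of 12097 genes. For 6 of 36 members (Defa6, Defa23, Defa24, Clps, Habp2 and Cd24a) every library of set A lay below every library of set B, against 3.18% of all genes tested, and for 0 of 36 the reverse held, against 3.05%. The differences of set B from set A were 0.65 ± 0.23 for Defa6, 0.65 ± 0.27 for Defa23, 0.57 ± 0.28 for Defa24 and 0.74 ± 0.33 for Clps. A slope over days 8 to 10 was fitted with the groups and passed for 0 of the 36 members, with 0 at an unadjusted p under 0.05, and for 0.0% of all genes.

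The regulators of Paneth cells listed here did not pass the test. Of 21 regulators of Paneth cell fate and of their niche, none passed between the mutants and the controls, 4 were lower and 2 higher at an unadjusted p under 0.05, a cut-off that 20.97% of all genes passed, and their median was −0.08. Unadjusted counts in the lists that follow are to be read against that share. Atoh1, the transcription factor required for secretory cells, averaged 19.4 ± 1.49 FPKM in the controls (n = 3) and 16.4 ± 1.93 in the mutants (n = 6), a difference of −0.23 ± 0.10 (limma, adjusted p = 0.255). Sox9, a Wnt target required for Paneth cells to form, differed by 0.04 ± 0.11. Ephb3, the receptor that positions Paneth cells at the crypt base, differed by 0.56 ± 0.13 (adjusted p = 0.0721). Ephb2 differed by −0.26 ± 0.06 (limma, adjusted p = 0.0837) and Fzd5 by −0.32 ± 0.10 (adjusted p = 0.131). All 6 mutant libraries lay below every control for Ephb2, Fzd5, Ern1, Ern2 and Foxa2, and above every control for Ephb3. Over all genes tested these patterns held for 7.37% and 5.19%. Of the 7 niche ligands 6 were tested and none passed (2 lower and 1 higher unadjusted, median 0.05), with Wnt3, which Paneth cells supply to stem cells, at −0.33 ± 0.13 (adjusted p = 0.190). All 6 mutant libraries lay below every control for Wnt3, at 2.36 to 4.19 against 4.34 to 4.92 FPKM. Jag1 had 5 of 6 mutant libraries below every control, and Tgfa and Il17rd each had 5 of 6 above. Of 22 genes of the secretory pathway and granule formation 21 were tested and none passed (3 lower and 1 higher unadjusted, median 0.05). Between them these lists held 0 calls by limma, while 1.16% of all genes tested were called in either direction.

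A further list, of antimicrobial and other crypt genes, was not lower as a whole. It held Pla2g2a, Reg3a, Reg3b, Reg3g, Reg1, Reg4, Rnase1, Retnlb, Zg16, Sprr2a1, Pigr, Nos2, Adam10, Tff3, Ang, Rnase4, Ccl6 and Cd177. Of 18 tested, only Ang passed, upward, 8 were higher and 1 lower at an unadjusted p under 0.05 (20.97% of all genes in either direction), and the median was 0.45. The lower one was Reg4, a secreted C-type lectin, at 360 ± 135 FPKM in the controls (n = 3) and 107 ± 83.3 in the mutants (n = 6), with 5 of 6 mutant libraries below every control, and it did not pass (−2.004 ± 0.61, limma, adjusted p = 0.131). Pla2g2a, a secreted phospholipase of Paneth cell granules, read 132, 93.7 and 8269 FPKM in the controls, 3841, 2693 and 10178 FPKM in set A and 5473.5, 7723 and 7731 FPKM in set B, so that 2 controls were far below the third and the difference of 3.60 ± 1.33 did not pass (adjusted p = 0.182). Reg3b and Reg3g, C-type lectins that bind bacteria, were at 2425 ± 1329.6 and 1824 ± 821 FPKM in the controls (n = 3) and 23265 ± 13838 and 15851 ± 9313 in the mutants (n = 6), and neither passed (adjusted p = 0.223 and 0.169). Set B of day 9 read 802 FPKM for Reg3b and 1058 FPKM for Reg3g, below every control, and the other 5 mutant libraries lay above every control.

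**Figure D5:**
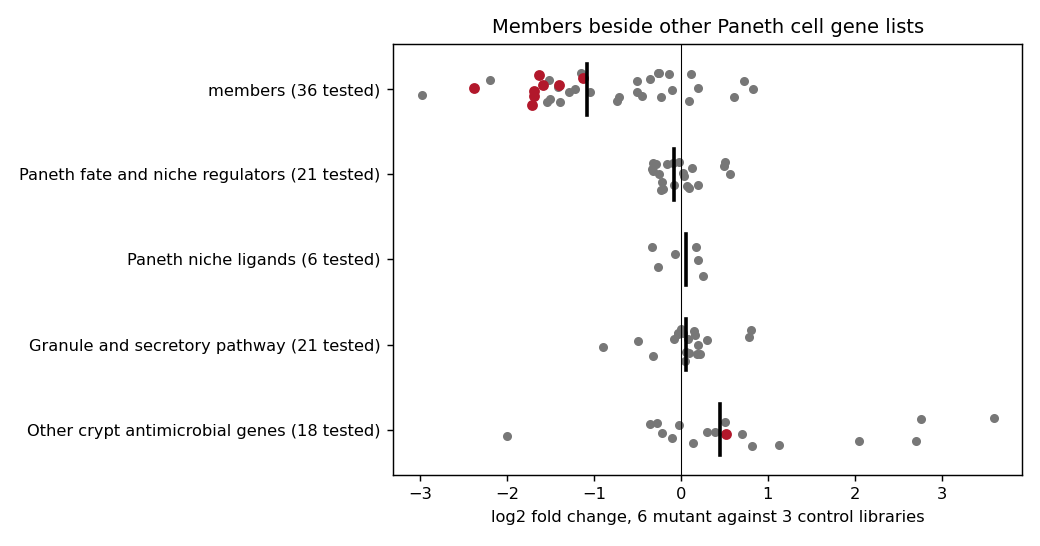
Log2 fold change (x axis, on log2 of FPKM + 1), 6 mutant against 3 control libraries, of the 36 members and of 4 other lists of Paneth cell and crypt genes, 1 point per gene, with the median as a vertical bar and genes past the limma threshold in red. The members have a median of −1.09 and the other lists medians of −0.08, 0.05, 0.05 and 0.45.

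Markers of other cells and of handling moved with the groups in part. The 6 fibroblast markers summed to at most 0.117 FPKM in the controls and to 0.242 to 6.64 in the mutants, and 6 T cell markers to 36.99 to 63.1 and 13.5 to 50.6. Of 10 genes listed as markers of tissue handling 9 were tested, and Junb (0.80 ± 0.09, limma, adjusted p = 0.0133) and Ier3 (0.60 ± 0.10, adjusted p = 0.0415) were higher. The sum of the 10 was 167 to 184 FPKM in the controls and 225 to 255 in the mutants. Whether handling differed between the groups was not tested. The 6 tuft cell markers tested each had a negative value, with a median of −0.81, none passed, and the list's sum was 27.005 to 60.5 FPKM in the controls and 9.10 to 43.5 in the mutants. The 8 enterocyte markers overlapped between the groups, with a median of −0.42. The part of these differences in the fall of the granule genes was not tested.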

How the data were processed

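RNA levels in 9 libraries of mouse crypt epithelium were taken from 1 table of FPKM values that the authors deposited. The unit was read from the values, which are not whole and whose low steps scale with transcript length. Per the submitters' processing notes the tools were kallisto 0.46.1 and DESeq2 1.40.1 and the build mm9, with no role stated; how the authors divided reads between copies was not stated. The 12097 genes that reached 1 FPKM in 3 or more libraries were fitted on log2(FPKM + 1) with limma 3.58.1 (trend and robust) in R 4.3.3, as means of 3 groups over all 9 libraries, with Benjamini-Hochberg adjustment and a threshold of 0.05. The pseudocount understates changes of low genes. Contrasts were both mutant sets, each set, set B minus set A, and a slope over days. The design had been written for counts or FPKM, and the FPKM form was used. The labels do not tie libraries to animals, so p-values reflect the spread of these libraries. Each group had 1 library per day, so that spread can mix differences between days with those between animals or of technical origin. The fit was also run on simulated data with independent noise. Those data had no outlying library and no libraries that deviate together, so they do not bear on either. The members, the lists and the named genes (every member, with per-library values for those that passed and the highest) were chosen with earlier results of these data known. Sequences came from GENCODE M21 and RefSeq (GRCm38.p6), whose coordinates are not those of mm9. Alternatives were another pseudocount, other filters, scalings, library weights, a block by day, fits to the compared groups and leaving out each library.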

Additional observations from a re-analysis of the deposited data

How the results depend on the processing

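The count of members that passed moved with the setting, and every call was downward. For both mutant sets against control, where 8 passed, it was 4 with no filter on low values (Defa6, Defa23, Defa29 and Defa30), 17 with library weights, and from 0 (without the day-10 control) to 13 (without set B of day 9) when single libraries were left out. Pseudocount 0.1 gave 8, a filter at 5 FPKM 10, equal totals 11 and equal totals of the genes other than the members 6, and that last scaling moved the median of all genes by −0.10. For set A against control, where 2 passed, no filter gave 1, equal totals 5, equal totals of other genes 4, a fit of the compared groups 1, and leaving out libraries 0 to 5. For set B, where 2 passed, no filter gave 1, library weights 17, a fit of the compared groups 1, and leaving out libraries 0 to 3. Set B minus set A and the slope over days called 0 members under each alternative run. Over all genes, the 140 calls for both sets became 80 with no filter, 68 with equal totals of other genes, 1438 with library weights and 17 to 995 with 1 library left out. The cause was not tested. Libraries of the same day did not deviate together in every pair: the correlations ran from −0.236 to 0.615, the mutant sets reached 0.398 on day 9 and 0.615 on day 10, each then most like the other, and 4 of 9 libraries were most like one of the same day. With the replicate block (day) 9 members passed for both sets, without Ang4 and Clps and with Itln1, Defa36 and Mptx2. In each set 2 passed, Defa29 and Defa30 in both. They took the place of Defa23 and Defa6 in set A, whereas set B kept Defa29 and had Defa30 in place of Defa6.

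Signs turned for 6 members that never passed. With 1 library left out, Defa2 ran from −0.61 to 0.00294, Defa22 from −0.65 to 0.10, Defa33 from −0.44 to 0.11, Defa35 from −0.036 to 0.42, Mmp7 from −0.090 to 0.28 and Spink4 from −0.043 to 0.38. Equal totals of other genes gave Mmp7 −0.025. Summing the rows that RefSeq names Defa along with the Defa symbols, chosen after seeing the data, gave a mutant to control ratio of 0.397 in place of 0.422. Leaving out the day-8 control moved the ratio of Defa21 with Defa22 to 0.931, also added after seeing the data. No count of reads was used, so depth limits the low genes, such as Mptx1, Lyz2 and Defa27.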

Other observations

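The table also holds defensin rows under other symbols. RefSeq lists Gm14851, Gm15292, Gm15293, Gm7849 and Gm7861 as synonyms of Defa38, Defa40, Defa41, Defa42 and Defa43, and these 5 rows were looked up after the values had been seen. Their sum averaged 24733 ± 5685 FPKM in the controls (n = 3) and 7473 ± 2271 in the mutants (n = 6), without overlap between the groups. Gm14851 (Defa38) read 11294, 7796 and 12740.4 FPKM in the controls, 3108, 1887 and 2552 FPKM in set A and 3168, 3624 and 3841 FPKM in set B, a fall of 1.82 ± 0.19 on the log2 scale (limma, adjusted p = 0.00910). Gm7861 (Defa43) fell by 1.86 ± 0.31 (adjusted p = 0.0426) and Gm15292 (Defa40) by 2.03 ± 0.35 (adjusted p = 0.0456), and Gm7849 (Defa42) differed by −1.63 ± 0.34 (adjusted p = 0.0687). Gm15293 (Defa41), with 6.07 to 8.31 FPKM in the controls, was at 11.1 to 60.9 FPKM in the mutants, above every control (1.64 ± 0.56, adjusted p = 0.157).

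The genes other than the members whose level followed the summed Defa level most closely over the 9 libraries were listed as a description, among 7782 genes with a mean log2(FPKM + 1) of at least 3. They were Cdk13 (Pearson r = 0.980), Gm14851 (0.975), Rhoq (0.958), Ctcf (0.957), Thap12 (0.957), Gm7861 (0.953), Usp33 (0.948) and AY761184 (0.947). Of these, Gm14851 and Gm7861 are the defensin rows Defa38 and Defa43 described above. The libraries share groups and scaling, and the changes behind these values differ in size: Cdk13 differed by −0.13 ± 0.05 between mutants and controls and AY761184 by −1.54 ± 0.29 (limma, adjusted p = 0.178 and 0.0521).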
